A study of Mus musculus with 28 samples.

Results

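The germ cells described here are the XX primordial germ cells of the mouse ovary at embryonic stage E13.5, and the question was what happened to their RNA when Setdb1 was lost. They were chosen by their labels alone: 2 RNA-seq libraries of Setdb1 knockout (KO, delta/-) female germ cells were compared with 4 libraries of heterozygous female germ cells, 2 of Het1 (delta/+) and 2 of Het2 (flox/-). These are 6 of the 28 samples of the series, and 1 wild-type (WT, flox/+) XX library served as a reference outside the tests. All these cells were sorted by flow cytometry as the gonad cells positive for SSEA1, a carbohydrate antigen on the surface of germ cells. Both control genotypes carry 1 deleted or null Setdb1 allele, so the comparison is between loss of both copies and heterozygosity, not between loss and wild type. The labels name neither the Cre driver that made the delta allele nor the strain of the cross, and they do not say whether replicates came from separate embryos, separate litters or pools. The p-values therefore measure the spread between libraries, which may be partly technical. That spread was estimated over 12 libraries, these 6 and the 6 Het1, Het2 and KO libraries of XY germ cells.

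SETDB1 is an enzyme that adds methyl groups to lysine 9 of histone H3. It is brought to chromatin largely by KAP1 (Trim28) and its KRAB zinc finger partners, and the trimethyl mark that it leaves, H3K9me3, is best known for silencing endogenous retroviruses. Primordial germ cells are the precursors of eggs and sperm, and at this stage they have erased most of their DNA methylation, so that silencing falls to histone marks more than in other cells. In the ovary they are leaving the pluripotent-like state of the early germ line and entering meiosis.

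RNA levels are in RPKM, reads per kilobase of gene or repeat adjusted for the reads of the library, so the depth of each library is unknown. The number of genes listed at 0 ranged from 5207 to 7024 in the 4 Het libraries and was 4858 and 5512 in KO replicates 1 and 2, which were thus among the 3 libraries with the fewest. Germ cell identity was plain in every library: Dazl and Ddx4, RNA regulators that define the germ line, were at or above 381 and 194 RPKM in all 6, against 1.89 and 1.28 RPKM in the SSEA1-negative soma library, which is male and C57BL/6. The 8 Y-linked genes in the table summed to at most 0.56 RPKM in any XX library. Het2 replicate 1 stood apart from the other controls. It had 5.87 RPKM of the pluripotency factor Nanog, where the other Het libraries had 25.5 to 42.9, and its erythroid markers summed to 398 RPKM, where the other Het libraries had 1.78 to 3.77 and KO replicate 1 had 67. Calls of named genes that appear without it are given beside the values with it.

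Setdb1 RNA was lower in both KO libraries than in any control. It stood at 42.5 and 43.2 RPKM in the Het1 libraries, 58.9 and 38.2 in the Het2 libraries and 34.6 and 31.3 in the KO libraries, and at 45.3 in the WT library. The groups did not overlap, but the difference did not pass the test (log2 difference -0.44, SE 0.18, adjusted p = 0.337 by limma). Het2 replicate 1 had the highest value. The labels do not give which exons the delta allele lacks, so how much of the RNA left in KO was from the deleted allele cannot be read from a value for the whole gene.

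Loss of Setdb1 raised far more genes than it lowered. Of 13518 genes tested, 54 rose (0.399% of those tested) and 1 fell (0.0074%) at an adjusted p below 0.05 by limma. The spread of each gene was taken from 12 libraries, those of XY germ cells included. With the XX libraries only, 11 genes rose. For genes, all log2 differences are of log2(RPKM + 1), a scale that understates the change of genes with low values. Among the raised genes they ran from 0.79 to 4.49, with a median of 1.33, beside a median of 0.07 over all genes tested. Centring each library on its median moved the all-gene median by 0.14 to -0.07, so small differences should be read against that shift; all 54 raised genes stayed positive under it, the lowest at 0.65. In 0 of the 54 did the WT library exceed the lower of the 2 KO libraries. KO replicate 1 was the higher of the pair in 30 of the 54, beside 54.9% of all genes tested, and Het2 replicate 1 was the highest control in 10 of the 54, beside 29.8%. The count depended on single libraries and on scaling: it was 3 without KO replicate 1 and 5 without KO replicate 2 (each leaving 1 KO library whose spread is assumed to equal that of the other groups), 18 without Het1 replicate 2, 19 without Het2 replicate 2, 94 without Het1 replicate 1, 140 without Het2 replicate 1, 22 after median centring and 11 after quantile normalization. Gabrr1, C6 and Pilrb2 passed without either KO library, Dub3 and Gm7120 without KO replicate 2 only, and the other named genes with both KO libraries only.

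The raised genes were of 2 kinds. In 34 of the 54 the mean of the 4 Het libraries was under 1 RPKM, so that these genes were almost silent in control germ cells, and 29 of the 34 were also under 1 RPKM in the soma library. The other 20 were already expressed in the controls. Of these 20, 11 had more RNA in the soma library than in either KO library, and 2 of the 34 did, beside 37.4% of all genes tested. The plot of values by library shows both kinds.

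**Figure D1:**
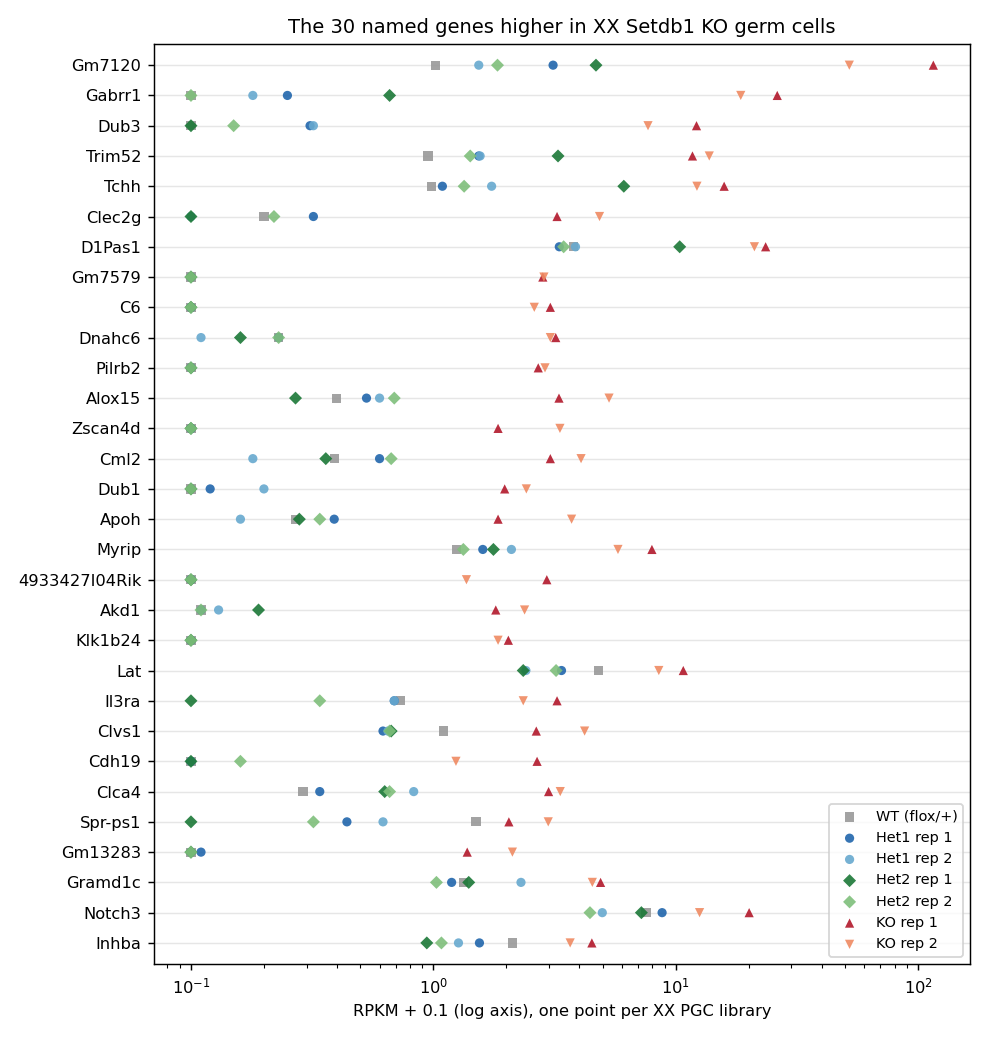
RPKM plus 0.1 (log axis) of the 30 raised genes with the largest log2 differences, 1 point per XX library, with WT as grey squares, Het1 as circles, Het2 as diamonds and KO as triangles. In every row both KO triangles lie to the right of all 4 Het points, by the rule that chose these genes. Gm7579, C6, Pilrb2, Zscan4d, 4933427I04Rik and Klk1b24 are listed at 0 in all Het libraries.

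The most strongly raised gene with near-silent controls was Gabrr1, which encodes a rho subunit of GABA-gated chloride channels and is known from the retina. Gabrr1 stood at 0.15 and 0.08 RPKM in the Het1 libraries, 0.56 and 0 in the Het2 libraries and 26.1 and 18.5 in the KO libraries (log2 difference 4.28, SE 0.23, adjusted p = 1.46e-06 by limma). The means were 0.198 ± 0.249 RPKM in Het (SD, n = 4) and 22.3 ± 5.44 in KO (n = 2), and it was listed at 0 in WT. Of 18 related receptor subunit genes in the table, 6 were tested and 1, Gabrr1 itself, rose, while both KO libraries lay above all Het libraries in 7 of the 18, beside 11.9% of all genes in the table. Gabra2 (0.17 to 0.71 RPKM in Het and 1.94 and 1.04 in KO, log2 difference 0.79, adjusted p = 0.264) and Gabre (1.04 to 2.98 RPKM in Het and 2.96 and 3.66 in KO, log2 difference 0.71, adjusted p = 0.351) did not pass, and Gabrr3, another rho subunit gene, named after its values were seen, was listed at 0 in all 6 libraries.

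Gm7120, whose current name is Tmem267, encodes a predicted membrane protein and had the largest log2 difference. It stood at 3.02 and 1.44 RPKM in the Het1 libraries, 4.59 and 1.74 in the Het2 libraries and 116 and 52 in the KO libraries (log2 difference 4.49, SE 0.48, adjusted p = 0.00147 by limma). Unlike Gabrr1 it was also expressed outside the germ line, with 11.6 RPKM in the soma library. KO replicate 1 had a higher value than KO replicate 2, while all controls stayed at or under 4.59 RPKM.

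Of the listed genes known from the 2-cell embryo, 4 rose. Summed over the 20 listed genes found in the table, they stood at 0 to 0.38 RPKM in the Het libraries and 21.4 and 22 in KO. Dub3, one of the USP17-like deubiquitinases, which remove ubiquitin from other proteins, accounted for much of the sum, with 0.21 and 0.22 RPKM in the Het1 libraries, 0 and 0.05 in the Het2 libraries and 12.1 and 7.59 in the KO libraries (log2 difference 3.25, SE 0.36, adjusted p = 0.00152 by limma). Its relatives Dub1 (0 to 0.1 RPKM in Het and 1.87 and 2.32 in KO, log2 difference 1.58, adjusted p = 0.0152) and Usp17l5 (0 to 0.1 RPKM in Het and 1.44 and 0.99 in KO, log2 difference 1.11, adjusted p = 0.0174) rose too. Zscan4d, of a cluster of zinc finger genes expressed in 2-cell embryos, was listed at 0 in WT and in every Het library, against 1.75 and 3.23 RPKM in KO (adjusted p = 0.0181). Both KO libraries lay above all Het libraries in 13 of the 20 genes in the table, where this held for 11.9% of all genes in the table. The 8 that could be tested reached the filter through KO libraries of either sex, so the 4 that rose are not a share of the list. The copies of Dub and of Zscan4 are near-identical, and how reads shared between copies were counted is not given, so the division of RNA among them is uncertain.

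Some raised genes encode receptors or adaptors known from blood cells, a grouping made after the values were seen. Clec2g, a C-type lectin-like receptor gene, stood at 0.22 and 0 RPKM in the Het1 libraries, 0 and 0.12 in the Het2 libraries and 3.14 and 4.75 in the KO libraries (log2 difference 2.17, adjusted p = 0.0174 by limma). Pilrb2, an activating immunoglobulin-like receptor gene of myeloid cells, was listed at 0 in WT and all Het libraries, against 2.61 and 2.79 RPKM in KO (adjusted p = 0.000819). Its neighbour Pilrb1, named here after its values were seen, was likewise at 0 in the controls and at 0.96 and 1.69 in KO (adjusted p = 0.0152). Il3ra, the alpha chain of the interleukin-3 receptor, stood at 0 to 0.59 RPKM in Het and 3.14 and 2.25 in KO (log2 difference 1.46, adjusted p = 0.0355). Lat, an adaptor of T cell receptor signalling, had the highest level of the set, 2.25 to 3.28 RPKM in Het and 10.7 and 8.42 in KO (log2 difference 1.5, adjusted p = 0.0174), and its WT value of 4.71 RPKM lay above the Het range. These genes came from different control levels, and Lat was the 1 well above 1 RPKM in the controls. Macrophage markers summed to 5.09 to 9.37 RPKM in the Het libraries and 11.2 and 4.44 in KO, without a separation of the groups.

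Other raised genes, grouped here by protein type after the values were seen, encode enzymes, secreted proteins and membrane proteins. Alox15, a lipoxygenase that oxidises polyunsaturated fatty acids, stood at 0.43 and 0.5 RPKM in the Het1 libraries, 0.17 and 0.59 in the Het2 libraries and 3.2 and 5.21 in the KO libraries (log2 difference 1.85, SE 0.29, adjusted p = 0.0174 by limma). Of the 8 lipoxygenase pathway genes in the table only 2 were tested, and Alox15 was the 1 that rose; Alox12e was at most 0.08 RPKM in every XX library. Cml2, an acetyltransferase-like gene, stood at 0.08 to 0.57 RPKM in Het and 2.94 and 3.97 in KO (log2 difference 1.73, adjusted p = 0.0066). The complement component C6 was listed at 0 in all controls, against 2.94 and 2.51 RPKM in KO (adjusted p = 0.000326). The kallikrein protease gene Klk1b24 was also at 0 in all controls, with 1.94 and 1.75 in KO (adjusted p = 0.0291). Apoh, a plasma apolipoprotein gene, stood at 0.06 to 0.29 RPKM in Het and 1.75 and 3.62 in KO (log2 difference 1.58, adjusted p = 0.0205). The last 3 encode secreted proteins. Clca4, a chloride channel accessory gene, reached 2.89 and 3.24 RPKM (adjusted p = 0.0066), and the cadherin gene Cdh19 2.58 and 1.14 (adjusted p = 0.0296).

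D1Pas1 and Dnahc6 are known from testis and from cilia. D1Pas1, a DEAD-box RNA helicase gene, was already expressed in controls and stood at 3.21 and 3.76 RPKM in the Het1 libraries, 10.3 and 3.35 in the Het2 libraries and 23.4 and 21 in the KO libraries (log2 difference 2.05, adjusted p = 0.0369 by limma). Dnahc6, a dynein heavy chain of motile cilia, stood at 0.01 to 0.13 RPKM in Het and 3.1 and 2.94 in KO (log2 difference 1.89, adjusted p = 0.00332). Akd1, an adenylate kinase gene, stood at 0.01 to 0.09 RPKM in Het and 1.71 and 2.28 in KO (log2 difference 1.53, adjusted p = 0.00381). Of 28 axonemal and ciliary genes in the table, 15 were tested and Dnahc6 was the 1 that rose; their median of 0.26 stood beside 0.07 for all genes, and Efhc2 (1.03 to 7.23 RPKM in Het and 12.3 and 21.1 in KO, log2 difference 2.07, adjusted p = 0.125) and Tekt2 (0.43 to 2.34 RPKM in Het and 5.11 and 3.09 in KO, log2 difference 1.28, adjusted p = 0.138) did not pass. Without Het2 replicate 1, 3 of the list passed as higher, Dnahc6, Tekt2 (1.51, adjusted p = 0.0349) and Foxj1 (1.34, adjusted p = 0.0271), beside 1.04% of all genes.

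The remaining named rises had less in common. Trim52, of the TRIM family of ubiquitin ligases, stood at 1.32 to 3.17 RPKM in Het and 11.6 and 13.7 in KO (log2 difference 2.30, adjusted p = 0.0066 by limma), and the hair follicle protein gene Tchh at 0.99 to 6.01 RPKM in Het and 15.8 and 12.1 in KO (log2 difference 2.30, adjusted p = 0.0283); in both, Het2 replicate 1 was the highest control. Myrip, which links melanosome and secretory vesicles to myosin, stood at 1.23 to 2 RPKM in Het and 7.88 and 5.68 in KO (log2 difference 1.58, adjusted p = 0.0066). Tchh, Trim52 and Myrip were thus expressed in the controls, and the next is lower. Clvs1, a lipid-binding protein gene, stood at 0.52 to 0.57 RPKM in Het and 2.56 and 4.11 in KO (log2 difference 1.46, adjusted p = 0.00671). Gramd1c, a sterol transfer protein gene, stood at 0.93 to 2.2 RPKM in Het and 4.8 and 4.43 in KO (log2 difference 1.27, adjusted p = 0.0362). Among genes without a known role, Gm7579 and 4933427I04Rik were listed at 0 in all controls, and the KO values were 2.73 and 2.76 RPKM for Gm7579 (adjusted p = 0.00147) and 2.84 and 1.27 for 4933427I04Rik (adjusted p = 0.0174). Gm13283 (adjusted p = 0.0066) and the pseudogene Spr-ps1 (adjusted p = 0.0217) stood at 1.28 and 2.02, and at 1.95 and 2.88, in KO.

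Raised genes with expression in the controls included several with more RNA in soma. Notch3, a receptor of the Notch pathway, stood at 8.69 and 4.88 RPKM in the Het1 libraries, 7.12 and 4.33 in the Het2 libraries and 20.0 and 12.4 in the KO libraries, and at 53.3 in soma (log2 difference 1.25, adjusted p = 0.0482 by limma). Inhba, which encodes the beta A subunit of activin, stood at 0.84 to 1.45 RPKM in Het and 4.41 and 3.57 in KO, with 23.3 in soma (log2 difference 1.24, adjusted p = 0.0388). Fbn2, a fibrillin of the extracellular matrix, named after its values were seen, stood at 10.4 to 14.7 RPKM in Het and 34.5 and 23.5 in KO, with 98 in soma (log2 difference 1.20, adjusted p = 0.0388). Markers of gonadal stroma summed to 14.3 to 42.2 RPKM in the Het libraries and 53 and 38.6 in KO, against 1844 in soma, and pregranulosa markers, those of the supporting cells of the ovary, to 20.1 to 32.1 RPKM in the Het libraries and 46.8 and 44.4 in KO. In 3 of 8 stromal and 3 of 8 pregranulosa genes in the table both KO libraries lay above all Het libraries, and in 0 of either did both lie below; the shares over all genes in the table were 11.9% above and 3.76% below. Foxl2, the defining pregranulosa factor, named after its values were seen, was at most 0.67 RPKM in every library. The part of these markers in the rises was not tested. In bulk RNA, more cells of a type and more RNA per cell cannot be told apart.

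Promoters of the leading genes are shown here because copies of one gene rose together, and to show how much CpG the leading genes carry. Of the 54 raised genes, 43 had a promoter in the RefSeq table of build GRCm38.p6, which is not the mm9 build of the RNA values. The 250 bases before the start of transcription are printed 5′ to 3′ on the strand of the gene, in lower case with each CpG in capitals, the dinucleotide at which DNA is methylated. Gabrr1 lies at chr4:33132306-33132555 (plus strand), and the first of the 2 starts listed for Gm7120 at chr13:119487836-119488085 (plus strand). Dub1 lies at chr7:104856766-104857015 (plus strand), and Usp17l5 at chr7:103416446-103416695 (plus strand). Pilrb1 lies at chr5:137858050-137858299 (minus strand), and Pilrb2 at chr5:137871759-137872008 (minus strand).
Gabrr1: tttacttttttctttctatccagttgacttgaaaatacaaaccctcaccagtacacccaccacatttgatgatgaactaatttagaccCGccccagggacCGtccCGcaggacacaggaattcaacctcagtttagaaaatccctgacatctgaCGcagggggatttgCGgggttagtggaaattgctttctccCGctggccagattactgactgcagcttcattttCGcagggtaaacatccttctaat
Gm7120: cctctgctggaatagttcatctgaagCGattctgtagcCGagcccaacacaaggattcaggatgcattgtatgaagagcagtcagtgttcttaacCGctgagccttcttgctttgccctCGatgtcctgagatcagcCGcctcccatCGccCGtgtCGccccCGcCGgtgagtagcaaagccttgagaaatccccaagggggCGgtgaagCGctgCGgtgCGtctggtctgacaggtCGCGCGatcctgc
Dub1: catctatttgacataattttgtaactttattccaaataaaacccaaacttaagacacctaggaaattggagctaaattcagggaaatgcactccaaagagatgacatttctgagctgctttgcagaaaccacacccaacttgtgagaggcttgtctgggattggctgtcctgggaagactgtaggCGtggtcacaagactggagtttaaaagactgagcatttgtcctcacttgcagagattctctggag
Usp17l5: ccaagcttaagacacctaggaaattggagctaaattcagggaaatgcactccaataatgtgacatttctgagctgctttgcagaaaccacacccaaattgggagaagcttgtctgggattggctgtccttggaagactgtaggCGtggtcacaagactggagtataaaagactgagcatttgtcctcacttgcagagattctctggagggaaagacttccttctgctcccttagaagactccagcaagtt
Pilrb1: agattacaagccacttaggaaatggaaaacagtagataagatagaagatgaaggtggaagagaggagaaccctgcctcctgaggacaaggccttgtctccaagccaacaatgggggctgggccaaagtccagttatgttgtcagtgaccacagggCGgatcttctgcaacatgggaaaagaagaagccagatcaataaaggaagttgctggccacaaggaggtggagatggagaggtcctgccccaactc
Pilrb2: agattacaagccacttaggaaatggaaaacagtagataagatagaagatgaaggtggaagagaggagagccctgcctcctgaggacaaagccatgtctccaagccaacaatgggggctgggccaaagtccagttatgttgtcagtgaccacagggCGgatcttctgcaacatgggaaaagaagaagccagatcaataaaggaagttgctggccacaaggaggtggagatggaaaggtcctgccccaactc
The Dub1 and Usp17l5 promoters matched at 198 of 208 aligned positions with 0 gaps, and those of Pilrb1 and Pilrb2 at 246 of 250. These pairs held 1 CpG each, Gabrr1 held 7 and Gm7120 held 17. Over all 27025 genes in that table, with the mean taken over a gene's starts, the median was 6 CpG in 250 bases. It was 3 over the 27 raised genes with near-silent controls that had a promoter there, and 13.7 over the 16 others. These counts describe the sequences and were not tested.

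Raised genes were spread over 16 chromosomes, and 3 pairs lay with at most 2 protein-coding genes between them in the RefSeq order. Pilrb1 and Pilrb2 were neighbours on chromosome 5. Dub3 and Dub1 had 1 protein-coding gene between them on chromosome 7. The third pair, also on chromosome 7, was Lat and Sbk1, a kinase gene named after its values were seen, which stood at 18.3 to 28.1 RPKM in Het and 45.5 and 38.9 in KO (log2 difference 0.94, adjusted p = 0.0456 by limma). The first 2 pairs are copies of one gene each, and Lat and Sbk1 are not. Of the 54 raised genes 49 could be placed, so a pair that holds an unplaced gene would be missed.

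Most raised genes had little H3K9me3 at their promoter in control cells. In the window of 1 kb on each side of the start, with 1 ChIP library per genotype and hence no test, 3 of 54 had 1 RPKM or more of H3K9me3 in XX Het (5.56%), where 0.518% of all genes tested did. Gm7120 was the highest, with 6.1 RPKM in XX Het and 5.41 in XX KO. D1Pas1 had 1.1 RPKM in XX Het and 0.761 in XX KO. The third, 3110070M22Rik, picked out after its values were seen, had 2.27 RPKM in XX Het and 1.12 in XX KO. The median over the 54 was 0.222 RPKM in Het and 0.188 in KO, and over all genes tested 0.148 and 0.113. Loss was taken as 1 RPKM or more in XX Het and a value at least 2-fold lower in XX KO, after adding 0.1 RPKM. It was seen in 0 of the 54, of which only the 3 above could meet it, beside 0.104% of all genes tested. Gabrr1 had 0.254 RPKM in XX Het and 0.235 in XX KO, both low. Cml2, under 1 RPKM in Het, had 0.776 RPKM in XX Het and 0.151 in XX KO. For the Polycomb mark H3K27me3, 5 of the 54 had 1 RPKM or more in XX Het. By the same rule it was lost at 1 of the 54, D1Pas1 (1.14 RPKM in XX Het and 0.407 in XX KO), beside 0.074% of all genes.

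The 1 gene that fell was the predicted gene Gm17485. It stood at 10.7 and 11.8 RPKM in the Het1 libraries, 13.4 and 15.3 in the Het2 libraries and 5.64 and 3.78 in the KO libraries (log2 difference -1.28, SE 0.23, adjusted p = 0.0388 by limma), with WT at 11.4. Both KO libraries lay below all Het libraries in 5.62% of the genes tested and above them in 14.8%. At an unadjusted p below 0.05, 1342 genes were higher (9.93%) and 328 lower (2.43%); this split depends on the scaling, being 780 and 1048 after median centring and 871 and 737 after quantile normalization.

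The 6 lower genes nearest the threshold did not pass with all libraries. Cubn, the endocytic receptor cubilin, stood at 6.21 to 8.91 RPKM in Het and 3.17 and 3.93 in KO (log2 difference -0.98, adjusted p = 0.0607 by limma). Elavl2, an RNA-binding protein known from neurons and from oocytes, stood at 56 to 68.1 RPKM in Het and 38.6 and 41.6 in KO (log2 difference -0.59, adjusted p = 0.0981). Chrm4, a muscarinic acetylcholine receptor gene, stood at 2.85 to 5.27 RPKM in Het and 1.69 and 1.45 in KO (log2 difference -0.93, adjusted p = 0.115). In these 3 genes and in the 3 that follow, the KO and Het libraries did not overlap, yet none passed. Ina, an intermediate filament gene of neurons, stood at 10.8 to 14.5 RPKM in Het and 7.24 and 7.94 in KO (log2 difference -0.69, adjusted p = 0.118). Enpp4, a nucleotide-cleaving ectoenzyme gene, stood at 15.2 to 26.5 RPKM in Het and 11.9 and 12.2 in KO (log2 difference -0.80, adjusted p = 0.116). Eef1e1, an accessory factor of the tRNA synthetase complex, stood at 50.4 to 66.9 RPKM in Het and 35.2 and 42.2 in KO (log2 difference -0.60, adjusted p = 0.121). Without Het2 replicate 1, 4 of the 6 passed as lower, beside 0.179% of all genes: Cubn (-1.08, adjusted p = 0.0212), Chrm4 (-1.05, adjusted p = 0.0371), Enpp4 (-0.97, adjusted p = 0.00926) and Eef1e1 (-0.68, adjusted p = 0.0368). The 6 had been picked as nearest the threshold in a fit that shares all its other libraries with this fit. Their count therefore cannot be compared with that share.

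Beyond single genes, 30 lists of genes were examined, and in 26 of them no member passed. The plot of differences by list gives each tested member and the median of each list beside the all-gene median of 0.07. Hox genes, lipoxygenases and 2-cell genes had the highest medians, and pluripotency and germ cell surface genes the lowest. Medians are over tested members, and genes with near-silent controls could reach the filter through KO libraries of either sex. Only 2 of 8 lipoxygenase genes, 8 of 20 2-cell genes and 18 of 38 Hox genes were tested. No result is therefore read from the rank of these lists. The medians of 8 lists changed sign under median centring or quantile normalization, among them meiotic recombination, H3K9 methylation, p53 and apoptosis, interferon, male germ fate and steroidogenic genes, so no direction is given for these.

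**Figure D2:**
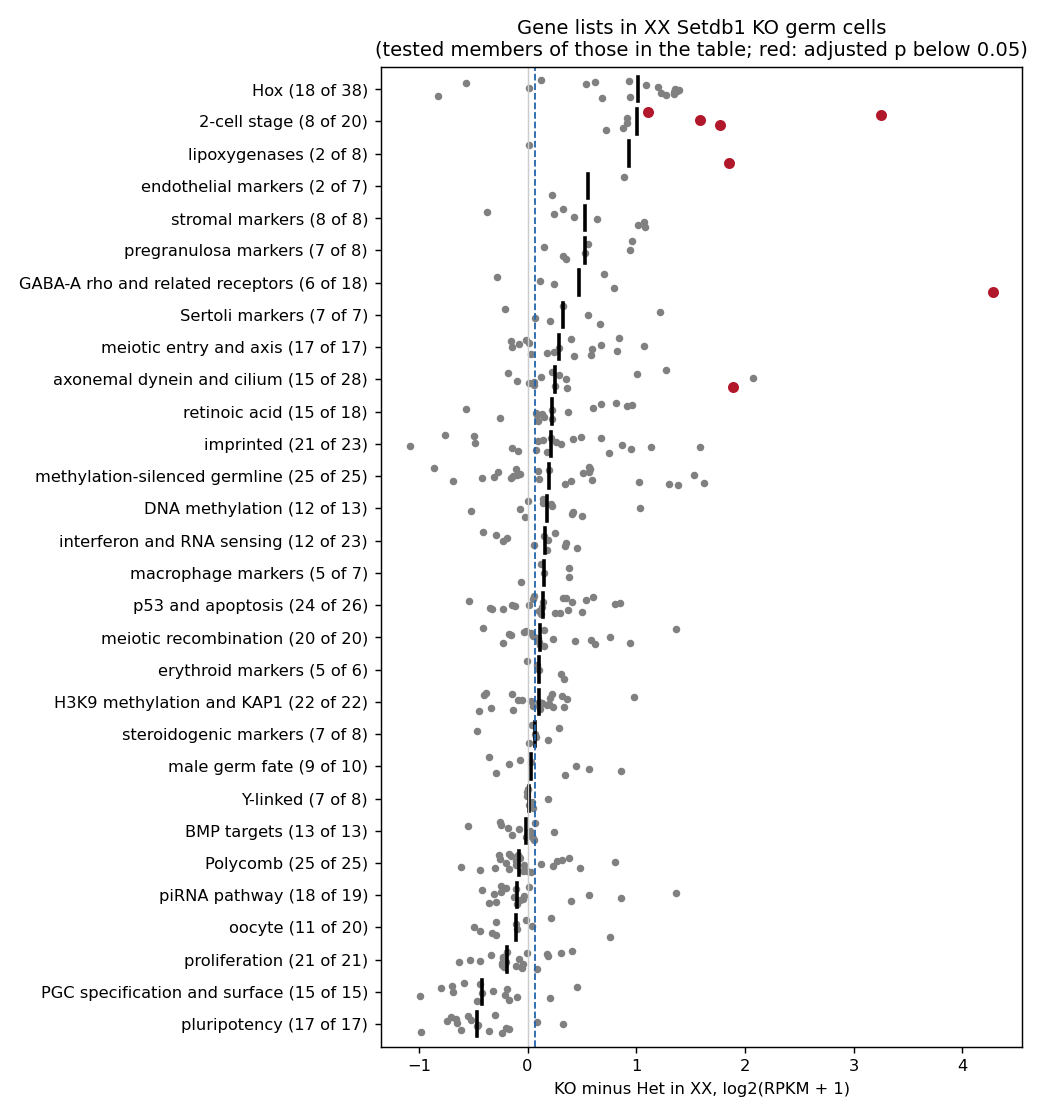
KO minus Het difference of log2(RPKM + 1) in XX germ cells for each tested member of 30 gene lists (tested of those in the table in brackets). Black bars are list medians, the dashed line is the all-gene median of 0.07, and red points passed; pluripotency lies lowest at -0.47 and Hox highest at 1.01.

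Pluripotency genes had a negative median in KO, and its size depended on which controls were used. Of 17 tested, 2 had positive differences and 15 negative ones, with a median of -0.47 (-0.61 after median centring and -0.57 after quantile normalization), and 0 passed in either direction. Nanog stood at 37.8 and 25.5 RPKM in the Het1 libraries, 5.87 and 42.9 in the Het2 libraries and 8.69 and 13.8 in the KO libraries (log2 difference -0.98, adjusted p = 0.521 by limma). Both KO libraries lay below 3 of the controls and above Het2 replicate 1. Without that library the log2 difference of Nanog was -1.57 (adjusted p = 0.0271), and the nuclear receptor gene Esrrb (-1.05, adjusted p = 0.0402) and the pluripotency gene Dppa5a (-0.96, adjusted p = 0.0126) passed as lower too, 3 of the 17 beside 0.179% of all genes. Nanog, Esrrb and Pou5f1 are named after their values were seen. With all libraries, Tcfcp2l1, a transcription factor of naive pluripotency, was the member whose groups did not overlap (14 to 18.9 RPKM in Het and 9.82 and 8.83 in KO, log2 difference -0.70, adjusted p = 0.353). Pou5f1, the central pluripotency factor, stood at 73.1 and 68.4 RPKM in KO, inside the Het range of 45.1 to 148.

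Genes of germ cell specification and surface also had a negative median. The 15 members, all tested, had a median of -0.42 and 0 passed. Dazl stood at 629.9 and 922 RPKM in the Het1 libraries, 763 and 770.4 in the Het2 libraries and 381 and 591 in the KO libraries (log2 difference -0.69, adjusted p = 0.263 by limma), with both KO libraries below all controls. Ddx4 was next, at 215 to 319 RPKM in Het and 194 and 215 in KO (log2 difference -0.42, adjusted p = 0.318). Alpl, the alkaline phosphatase used to stain germ cells, stood at 32 to 79.9 RPKM in Het and 20.4 and 27.3 in KO (log2 difference -0.99, adjusted p = 0.303), again without overlap. Cxcr4, the receptor that guides germ cell migration, stood at 6.46 to 22 RPKM in Het and 5.43 and 10.5 in KO (log2 difference -0.80, adjusted p = 0.388); without Het2 replicate 1 it passed as lower (-1.14, adjusted p = 0.0447).

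Genes of meiotic entry and axis had a positive median, while the median of recombination genes changed sign with scaling. In both lists the controls were widely spread and 0 passed. The 17 genes of meiotic entry and chromosome axis had a median of 0.29 (0.61 without Het2 replicate 1), and in 0 of them did the groups not overlap. Their summed level was 983 and 1452 RPKM in the Het1 libraries, 2509.7 and 947 in the Het2 libraries, and 1585 and 1549.9 in the KO libraries. Stra8, the gatekeeper of meiosis, stood at 122 and 137 RPKM in Het1, 323 and 73.3 in Het2 and 228 and 158 in KO (adjusted p = 0.808 by limma). Stra8 and Prdm9 are named after their values were seen. The KO libraries thus lay within the range of the controls, below Het2 replicate 1 and above the rest. Syce3, of the central element of the synaptonemal complex, came nearest to passing (3.37 to 17.6 RPKM in Het and 15.5 and 22.8 in KO, log2 difference 1.07, adjusted p = 0.337). Among 20 recombination genes Trip13 had the smallest p (35.1 to 44.6 RPKM in Het and 27.7 and 33.1 in KO, log2 difference -0.41, adjusted p = 0.283). Prdm9, the methyltransferase that places recombination sites, stood at 13.1 and 8.4 RPKM in KO, 33.1 in Het2 replicate 1 and 1.15 to 5.16 in the other controls, and passed as higher without Het2 replicate 1 (1.77, adjusted p = 0.0464). The plot of list levels by library shows Het2 replicate 1 farther from the other controls than either KO library in pluripotency and meiotic genes.

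**Figure D3:**
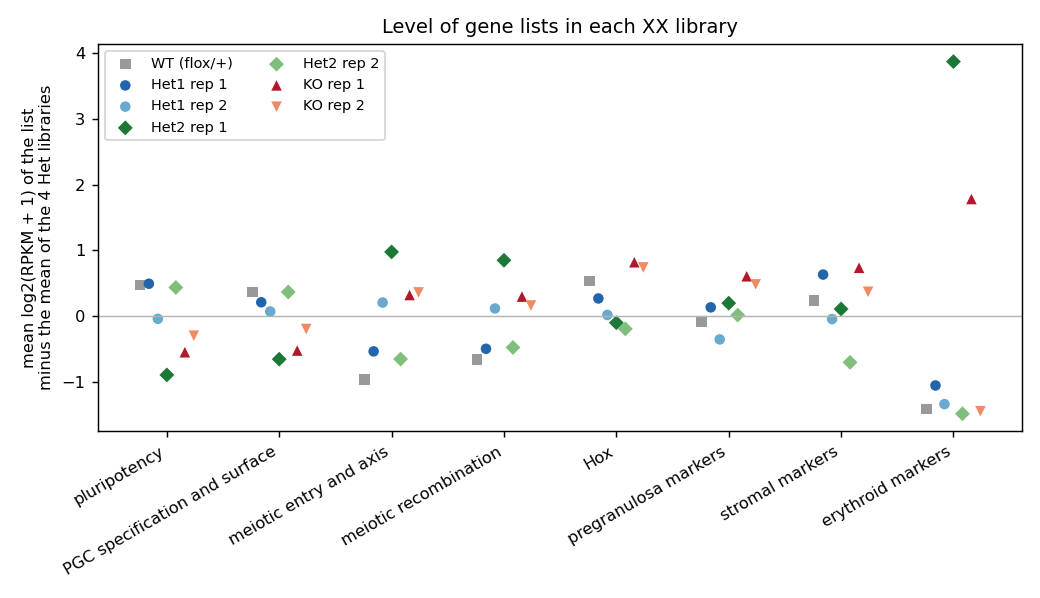
Mean log2(RPKM + 1) of the tested members of 8 gene lists in each XX library, minus the mean of the 4 Het libraries. In pluripotency and meiotic genes the KO triangles lie between Het2 replicate 1 (dark diamond) and the other controls; in Hox genes they lie above all 4 Het libraries and WT.

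Hox genes, which give cells their position along the body axis, had the highest list median, 1.01 (0.87 after median centring). Of 38 Hox genes found, 18 were tested, and 0 passed. At an unadjusted p below 0.05, 12 of the 18 were higher and 1 lower, beside 9.93% and 2.43% of all genes tested. That all-gene split depends on the scaling. Both KO libraries lay above all Het libraries in 13 of the 38 and below them in 1, beside 11.9% and 3.76% of all genes in the table. Hoxb2 stood at 2.78 and 1.42 RPKM in the Het1 libraries, 1.28 and 1.44 in the Het2 libraries and 5.1 and 5.8 in the KO libraries, and at 4.09 in WT (log2 difference 1.27, adjusted p = 0.155 by limma). Hoxc4 stood at 1.74 to 3.41 RPKM in Het and 7.27 and 7.07 in KO (log2 difference 1.20, adjusted p = 0.171), but the WT library, at 7.9, was higher than both KO libraries. Hoxb6 stood at 4.69 to 8.79 RPKM in Het and 21.7 and 16 in KO, and at 13.6 in WT (log2 difference 1.38, adjusted p = 0.178). Hoxa13 was the 1 on the lower side (0.9 to 2 RPKM in Het and 0.26 and 0.33 in KO, log2 difference -0.82, adjusted p = 0.171). As a list, Hox RNA was also high in soma, at 297 RPKM. In the germ cell libraries WT had 92.4 RPKM, the Het libraries 39.4 to 68.6 and KO 127 and 122. The pregranulosa markers given above were also higher in both KO libraries than in all Het libraries, at 20.1 to 32.1 RPKM in the Het libraries and 46.8 and 44.4 in KO, and their part in the Hox values was not tested.

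Genes that silence chromatin, the pathway of SETDB1 itself, gave no call. Of 22 genes of H3K9 methylation and KAP1, 0 passed, and both KO libraries lay above all Het libraries in 4 and below in 4, beside 11.9% and 3.76% of all genes in the table. Without Het2 replicate 1, 1 of the 22 passed as higher, Morc2a, which works with the HUSH complex and is named after its values were seen (0.60, adjusted p = 0.0498). Trim28, which encodes KAP1 and is named after its values were seen, stood at 379.6 and 320.2 RPKM in KO, within the Het range of 254 to 521. Zfp57, a KRAB zinc finger gene that guards imprints, stood at 3.05 to 4.2 RPKM in Het and 8.81 and 6.81 in KO (log2 difference 0.98, adjusted p = 0.3 by limma), and the methyltransferase gene Ehmt1 at 32.7 to 41 RPKM in Het and 45.7 and 45 in KO (log2 difference 0.33, adjusted p = 0.371). Smarcad1, a remodeller that works with KAP1, stood at 48.9 to 62.4 RPKM in Het and 41.3 and 43.6 in KO (log2 difference -0.40, adjusted p = 0.358). Among DNA methylation genes, Tet3, which oxidises methylcytosine, stood at 3.32 to 6.79 RPKM in Het and 12 and 9.18 in KO (log2 difference 1.03, adjusted p = 0.167), and the methyltransferase gene Dnmt3a at 11.2 to 13.8 RPKM in Het and 20.4 and 14.9 in KO (log2 difference 0.50, adjusted p = 0.264). Among 25 Polycomb genes, Phf19 stood at 50.7 to 58.6 RPKM in Het and 35.5 and 36.9 in KO (log2 difference -0.62, adjusted p = 0.138) and Cbx6 at 7.07 to 8.56 RPKM in Het and 15.5 and 12.2 in KO (log2 difference 0.80, adjusted p = 0.0837). The last 4 differed without overlap between groups, and none passed.

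Germline genes whose promoters are methylated in other tissues, 25 in the table and all tested, had a median of 0.19 (0.05 after median centring), and 0 passed. Tex13, a germ cell gene of unknown function, stood at 9.19 and 6.83 RPKM in the Het1 libraries, 14.9 and 14.4 in the Het2 libraries and 28 and 31.7 in the KO libraries (log2 difference 1.38, adjusted p = 0.112 by limma), and without Het2 replicate 1 it passed (adjusted p = 0.0498). The testis tubulin gene Tuba3b stood at 15.1 to 54 RPKM in Het and 62.5 and 58.4 in KO (log2 difference 1.30, adjusted p = 0.288), and the testis cytochrome gene Cyct at 50.3 to 88.9 RPKM in Het and 37.9 and 34.6 in KO (log2 difference -0.86, adjusted p = 0.187), on the lower side. Of 18 tested piRNA pathway genes, which silence transposons through small RNAs, 0 passed. Among oocyte genes 11 of 20 could be tested, with the transcription factor gene Sohlh2 at 109 to 148 RPKM in Het and 84.8 and 96.2 in KO (log2 difference -0.43, adjusted p = 0.291). Among male fate genes the Nodal inhibitor gene Lefty1 stood at 0 to 0.43 RPKM in Het and 1.02 and 0.37 in KO (log2 difference 0.56, adjusted p = 0.309).

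Signalling, imprinted and stress genes completed the lists, with 0 members passing. Retinoic acid, which the gonad uses to start meiosis, is handled by Crabp2 (10.4 to 15.3 RPKM in Het and 21 and 19.2 in KO, log2 difference 0.60, adjusted p = 0.303 by limma) and Stra6 (5.61 to 10.5 RPKM in Het and 14.9 and 15.2 in KO, log2 difference 0.96, adjusted p = 0.328), a binding protein of retinoic acid and a receptor for retinol uptake. Dhrs3, which turns retinal back to retinol, stood at 1.62 to 3.31 RPKM in Het and 4.68 and 4.4 in KO (log2 difference 0.81, adjusted p = 0.216), and the binding protein gene Crabp1 at 32.9 to 47.3 RPKM in Het and 31.5 and 20.9 in KO (log2 difference -0.57, adjusted p = 0.341). The list's 15 tested members had a median of 0.23, and its members lay on both sides of 0. Msx2, a BMP target, stood at 22.8 to 29 RPKM in Het and 12.8 and 22.4 in KO (log2 difference -0.54, adjusted p = 0.338). Of 21 tested imprinted genes, with a median of 0.22, Nnat stood at 8.95 to 18.2 RPKM in Het and 29.8 and 22.8 in KO (log2 difference 1.14, adjusted p = 0.118) and Dlk1 at 4.86 to 11.3 RPKM in Het and 44.4 and 12.2 in KO (log2 difference 1.58, adjusted p = 0.164). Igf2, the fetal growth factor, stood at 30.9 to 39.8 RPKM in Het and 67.8 and 55.8 in KO (log2 difference 0.75, adjusted p = 0.293), and the zinc finger gene Plagl1 at 24.9 to 54.1 RPKM in Het and 16 and 17.2 in KO (log2 difference -1.08, adjusted p = 0.255), on the lower side. These 4 were 88.2, 95.1, 456 and 154 RPKM in soma, above every XX germ cell library. The imprinted genes thus included both directions. Of 24 tested p53 and apoptosis genes the caspase gene Casp8 stood at 1.07 to 3.15 RPKM in Het and 4.63 and 4.29 in KO (log2 difference 0.85, adjusted p = 0.276) and Bcl2, which protects from apoptosis, at 1.17 to 1.59 RPKM in Het and 2.65 and 2.15 in KO (log2 difference 0.54, adjusted p = 0.32). Mavs, an adaptor of viral RNA sensing, stood at 9.58 to 13.4 RPKM in Het and 8.01 and 7.74 in KO (log2 difference -0.41, adjusted p = 0.35), the member of the interferon list with the smallest p. Proliferation genes had 0 members at an unadjusted p below 0.05; without Het2 replicate 1 the mitotic cyclin gene Ccnb2, named after its values were seen, passed as lower (-0.62, adjusted p = 0.0455).

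Markers of other gonadal cells also had 0 members passing. Lgr5, a receptor of pregranulosa precursors, stood at 1.57 to 2.31 RPKM in Het and 4.62 and 4.98 in KO (log2 difference 0.94, adjusted p = 0.216 by limma), and Fst, which binds activin, at 1.46 to 2.57 RPKM in Het and 3.36 and 3.27 in KO (log2 difference 0.52, adjusted p = 0.4). Both were higher in KO than in every Het library. Pdgfra and Nr2f2, of interstitial stroma, stood at 1.95 to 4.68 RPKM in Het and 7.92 and 5.42 in KO (log2 difference 1.08, adjusted p = 0.166) and at 4.15 to 8.93 RPKM in Het and 14.2 and 14.9 in KO (log2 difference 1.02, adjusted p = 0.231). The junction protein gene Cldn11, of Sertoli cells in the testis, stood at 11.8 to 27.3 RPKM in Het and 42.5 and 36.4 in KO (log2 difference 1.22, adjusted p = 0.236). Of the 7 Sertoli genes in the table, both KO libraries lay above all Het libraries in 3 and below them in 1. Over all genes in the table the shares were 11.9% and 3.76%. Sertoli markers summed to 77.6 to 109 RPKM in the Het libraries and 106 and 105 in KO, without a separation of the groups. The endothelial receptor gene Kdr stood at 3.06 to 6.77 RPKM in Het and 10.7 and 6.84 in KO (log2 difference 0.89, adjusted p = 0.29). In WT, Nr2f2 was 15 RPKM, above both KO libraries, and Cldn11 33.2, above all Het libraries. Steroidogenic markers summed to 5.98 to 12.7 RPKM in the Het libraries and 7.57 and 6 in KO, with no separation of the groups. Foxj1, the master factor of motile cilia, stood at 0.16 to 3.01 RPKM in Het and 3.58 and 2.57 in KO (log2 difference 1.01, adjusted p = 0.267) and passed without Het2 replicate 1 (adjusted p = 0.0271).

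Repeats answered through a small set of retroviral families. Of 528 families tested on log2(RPKM + 0.1), 10 rose (1.89%) and 0 fell (0%, with 0 lower and 39 higher, 7.39%, at an unadjusted p below 0.05) by limma. All 10 are endogenous retroviruses: 6 are parts of IAP (intracisternal A particle) elements, 3 of MMERVK10C or its RLTR10 long terminal repeats, and 1 of GLn. Their long terminal repeats (LTR) hold the promoter and their internal (int) parts the genes of the virus. Both KO libraries lay above all Het libraries in 9.47% of the families tested and below them in 0%. After median centring 6 of the 10 still passed, and 6 after quantile normalization.

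**Figure D4:**
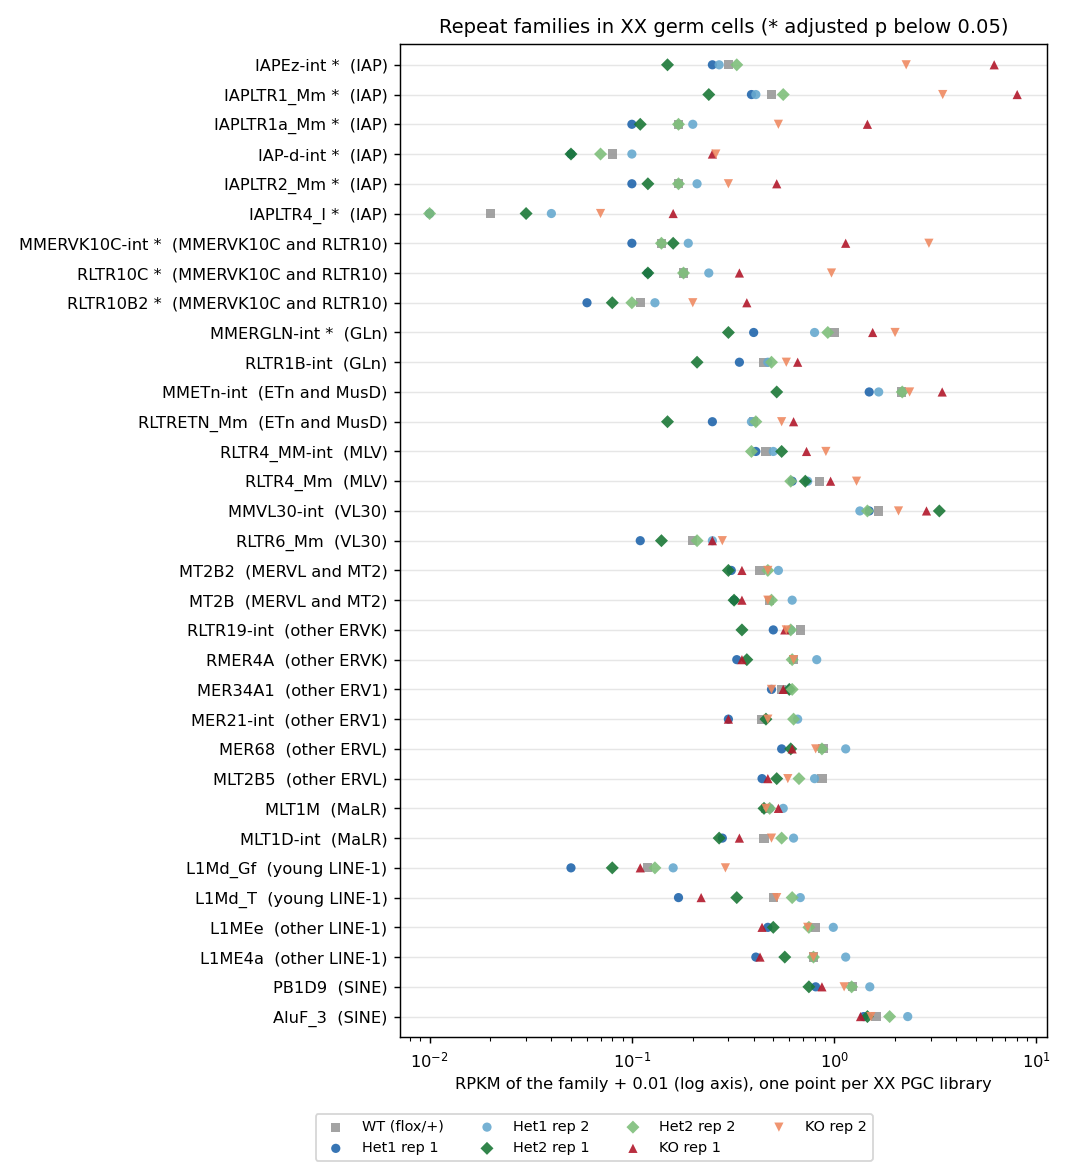
RPKM plus 0.01 (log axis) of repeat families in each XX library, 1 point per library: the 10 families that passed (starred) and the 2 families with the highest mean RPKM in each group. KO triangles lie right of all 4 Het points in the 10 starred rows, and are not separated from them in the MERVL, MaLR, older LINE-1 and SINE rows.

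IAP elements are among the retroviruses that still move in the mouse genome. The internal region IAPEz-int stood at 0.24 and 0.26 RPKM in the Het1 libraries, 0.14 and 0.32 in the Het2 libraries and 6.17 and 2.26 in the KO libraries (log2 difference 3.53, SE 0.34, adjusted p = 4.32e-10 by limma). Its LTR, IAPLTR1_Mm, stood at 0.38 and 0.4 RPKM in the Het1 libraries, 0.23 and 0.55 in the Het2 libraries and 8.02 and 3.43 in the KO libraries (log2 difference 3.49, SE 0.35, adjusted p = 4.32e-10). In both, KO replicate 1 was higher than KO replicate 2, and the spread between the KO replicates was itself large (0.39 ± 0.131 RPKM in Het (SD, n = 4) and 5.72 ± 3.25 in KO (n = 2) for the LTR). The other IAP parts that passed had lower levels. IAPLTR1a_Mm stood at 0.09 to 0.19 RPKM in Het and 1.45 and 0.52 in KO (log2 difference 2.08, adjusted p = 1.84e-06), and IAPLTR2_Mm at 0.09 to 0.2 RPKM in Het and 0.51 and 0.29 in KO (log2 difference 1.05, adjusted p = 0.0109). IAP-d-int, of deleted internal regions, stood at 0.04 to 0.09 RPKM in Het and 0.24 and 0.25 in KO (log2 difference 1.14, adjusted p = 0.000303), and IAPLTR4_I at 0 to 0.03 RPKM in Het and 0.15 and 0.06 in KO (log2 difference 0.84, adjusted p = 0.0109). Of the 15 IAP families tested, 6 rose, and both KO libraries were above all Het libraries in 12, beside 9.47% of all families tested. The median log2 difference was 0.65, beside 0.05 over all families.

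MMERVK10C had the opposite order of the KO replicates. Its internal region stood at 0.09 and 0.18 RPKM in the Het1 libraries, 0.15 and 0.13 in the Het2 libraries and 1.13 and 2.93 in the KO libraries (log2 difference 3.04, SE 0.36, adjusted p = 3.06e-08 by limma), so KO replicate 2 was the higher one. The LTR RLTR10C followed it, at 0.11 to 0.23 RPKM in Het and 0.33 and 0.96 in KO (log2 difference 1.43, adjusted p = 0.0109), whereas RLTR10B2 was higher in KO replicate 1 (0.05 to 0.12 RPKM in Het and 0.36 and 0.19 in KO, log2 difference 1.02, adjusted p = 0.00712). Of the 9 families of the group 3 rose, and both KO libraries were above all Het libraries in 8, beside 9.47% of all families tested. The group had a median of 0.68, beside 0.05 over all families. GLn elements, related to murine leukaemia viruses, had 1 of 6 families rising. MMERGLN-int stood at 0.39 and 0.79 RPKM in the Het1 libraries, 0.29 and 0.92 in the Het2 libraries and 1.54 and 1.99 in the KO libraries (log2 difference 1.52, SE 0.38, adjusted p = 0.0119), with WT at 0.99, above every Het library. Without Het2 replicate 1 it did not pass (log2 difference 1.28, adjusted p = 0.0504). RLTR1B-int stood at 0.2 to 0.48 RPKM in Het and 0.65 and 0.57 in KO (log2 difference 0.65, adjusted p = 0.566).

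Other retroviruses had differences that did not pass. MMETn-int, of the ETn elements that insert anew in mouse strains, stood at 1.48 and 1.65 RPKM in the Het1 libraries, 0.51 and 2.16 in the Het2 libraries and 3.41 and 2.35 in the KO libraries (log2 difference 1.07, SE 0.47, adjusted p = 0.522 by limma), and its log2 difference turned to -0.13 under quantile normalization. RLTRETN_Mm, the ETn LTR, stood at 0.14 to 0.4 RPKM in Het and 0.62 and 0.54 in KO (log2 difference 0.86, adjusted p = 0.416). The 5 families of ETn and MusD had a median of 1.01, with 4 of 5 non-overlapping and 0 passing. Murine leukaemia virus (MLV) parts RLTR4_MM-int (0.38 to 0.54 RPKM in Het and 0.72 and 0.9 in KO, log2 difference 0.72, adjusted p = 0.417) and RLTR4_Mm (0.6 to 0.73 RPKM in Het and 0.95 and 1.28 in KO, log2 difference 0.66, adjusted p = 0.602) separated without passing. In VL30, MMVL30-int stood at 1.33 to 3.3 RPKM in Het and 2.85 and 2.07 in KO, and RLTR6_Mm at 0.1 to 0.24 RPKM in Het and 0.24 and 0.27 in KO, with the top Het library of MMVL30-int, Het2 replicate 1, above both KO libraries.

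MERVL, the retrovirus of the 2-cell embryo, gave no call although Zscan4d and Dub genes rose. Of the 7 MERVL and MT2 families 0 passed, 1 was non-overlapping, and 1 was higher at an unadjusted p below 0.05 by limma. Over all families tested, both KO libraries lay above all Het libraries in 9.47%, and 7.39% were higher at that unadjusted p. Their log2 differences ran from -0.05 to 0.75, with a median of 0.03 (-0.07 after median centring). The 2 with the most RNA overlapped between groups: MT2B stood at 0.31 to 0.61 RPKM in Het and 0.34 and 0.46 in KO, and MT2B2 at 0.29 to 0.52 RPKM in Het and 0.34 and 0.46 in KO. Among young LINE-1 elements, L1Md_T stood at 0.16 to 0.67 RPKM in Het and 0.21 and 0.51 in KO, inside the Het range, and L1Md_Gf at 0.04 to 0.15 RPKM in Het and 0.1 and 0.28 in KO (log2 difference 0.54, adjusted p = 0.601 by limma). Of 99 other LINE-1, 84 MaLR and 35 SINE families, 0 passed and 0 were non-overlapping. Their most abundant families L1ME4a (0.4 to 1.13 RPKM in Het and 0.42 and 0.78 in KO), MLT1M (0.44 to 0.55 RPKM in Het and 0.52 and 0.45 in KO) and AluF_3 (1.39 to 2.3 RPKM in Het and 1.34 and 1.51 in KO) overlapped, and so did L1MEe (0.46 to 0.98 RPKM in Het and 0.43 and 0.73 in KO), MLT1D-int (0.26 to 0.62 RPKM in Het and 0.33 and 0.48 in KO) and PB1D9 (0.74 to 1.49 RPKM in Het and 0.86 and 1.11 in KO). The same held for the most abundant families of the remaining retroviral groups: RLTR19-int (0.34 to 0.6 RPKM in Het and 0.56 and 0.57 in KO), RMER4A (0.32 to 0.81 RPKM in Het and 0.34 and 0.62 in KO), MER34A1 (0.48 to 0.61 RPKM in Het and 0.55 and 0.48 in KO), MER21-int (0.29 to 0.65 RPKM in Het and 0.29 and 0.46 in KO), MER68 (0.54 to 1.13 RPKM in Het and 0.61 and 0.8 in KO) and MLT2B5 (0.43 to 0.79 RPKM in Het and 0.46 and 0.58 in KO).

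All 10 families that rose were among those with the most H3K9me3. Of the 528 families, 47 had 1 RPKM or more of H3K9me3 in XX Het, the 10 included. In all 47 the mark was lower in KO, at 59.5% to 89.4% of Het with a median of 73.2%, and the median over the other 481 was 107%. There is 1 ChIP library per genotype, so these are values without a test. Both KO RNA libraries lay above all Het libraries in 33 of the 47 (70.2%) and in 17 of the 481 (3.53%). H3K9me3 was 1.9 RPKM in Het and 1.28 in KO at IAPLTR1_Mm, 1.4 RPKM in Het and 1.18 in KO at IAPEz-int, 1.22 RPKM in Het and 1.01 in KO at MMERVK10C-int and 1.3 RPKM in Het and 0.94 in KO at MMERGLN-int. MLV families kept the smallest share of the mark, 66.7% in the median of 3, with 0 RNA calls, and IAPEz-int kept 84.3%. H3K27me3 was lower in the same groups, at a median 84% of Het over IAP and 83.1% over MMERVK10C families. MERVL families stood at 111% of Het in the median and had 0.29 RPKM of H3K9me3 in Het, where IAP had 1.7. Family values pool all copies, and how reads that fit many copies were placed is not given.

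**Figure D5:**
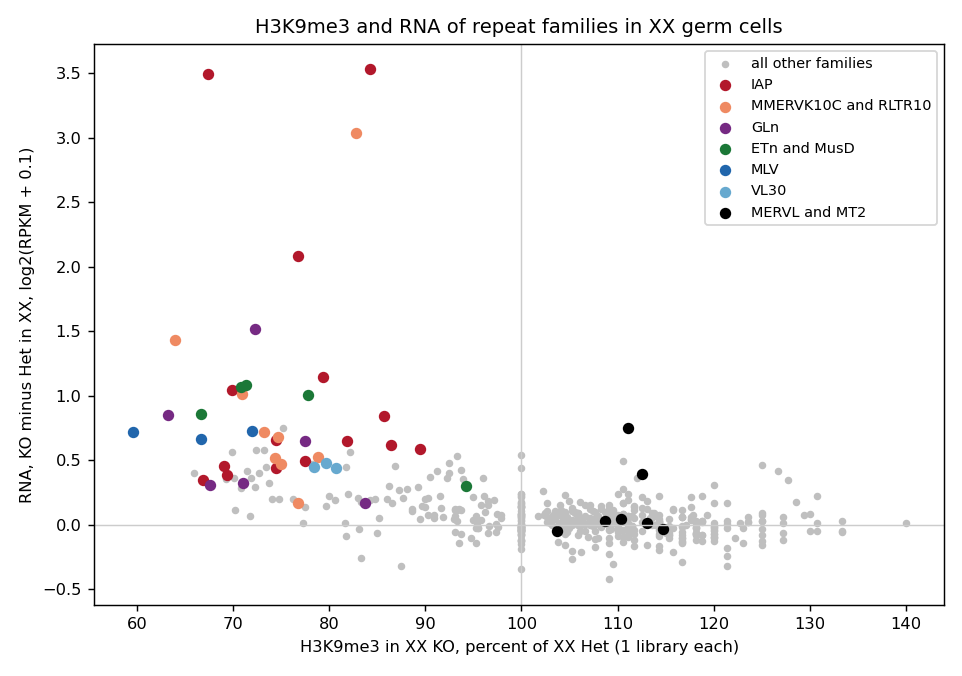
RNA difference between KO and Het (log2(RPKM + 0.1), 6 libraries) against H3K9me3 in KO as a percent of Het (1 library each) for the 528 tested repeat families in XX germ cells. IAP, MMERVK10C, GLn, ETn, MLV and VL30 families lie left of 100%, and the families with the largest RNA differences are IAPEz-int at 3.53 and IAPLTR1_Mm at 3.49.

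The same contrast in XY germ cells of the same cross, with its own controls, showed how much of the ovarian response was shared. Of the 54 genes raised in XX, 25 were also raised in XY (46.3% of the XX genes and 30.1% of the 83 XY genes), beside 0.614% of all genes raised in XY. Nearly all of the shared genes were of the first kind: 23 of the 34 with near-silent controls, and 2 of the 20 expressed in controls. Both contrasts came from the same fit with a shared spread per gene. Genes with near-silent controls could also reach the filter through KO libraries of either sex. The calls in XX and XY are thus not independent, and the split by kind was not tested. Of the 10 repeat families 9 were raised in XY too, beside 2.46% of all families, the exception being IAPLTR2_Mm (XY log2 difference 0.74, adjusted p = 0.175 by limma). A call in 1 sex alone does not show that the sexes differ, and the difference itself passed for 7 genes (0.0518%) and 0 families (3 at an unadjusted p below 0.05).

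In all 7 the ovarian cells had the smaller effect, though the 3 given last had no XX response to compare. The gene 2010005H15Rik, named Csta2 in RefSeq, rose in XX, at 0 to 0.34 RPKM in Het and 1.51 and 1.47 in KO. It stood at 57.7 and 69.5 RPKM in XY KO (XX minus XY difference -4.66, SE 0.32, adjusted p = 3.39e-05 by limma). Cyp17a1, an enzyme of androgen synthesis made by Leydig cells, was at most 0.31 RPKM in any XX library and 13.3 and 8.66 RPKM in XY KO (XX minus XY difference -3.04, SE 0.37, adjusted p = 0.00451). The lipoxygenase gene Alox12e was near 0 in XX and 4.3 and 6.01 RPKM in XY KO (XX minus XY difference -2.0, SE 0.26, adjusted p = 0.0105). The matrix metalloproteinase gene Mmp10 was at most 0.48 RPKM in XX and 3.48 and 6.28 RPKM in XY KO (XX minus XY difference -2.21, SE 0.33, adjusted p = 0.0305). The 7 tested steroidogenic markers, Cyp17a1 among them, had a median log2 difference of 2.45 in XY and 0.07 in XX (-0.08 after median centring), and their part in that result was not tested. The other 3 genes give no XX response to compare. Usp9y lies on the Y chromosome, and Gm10256 and Gm3376 are listed at 0 in all 6 XX libraries (XX minus XY differences -2.56, -2.44 and -2.18). All 3 also had 0 RPKM of H3K9me3 and H3K27me3 at the promoter in XX Het and XX KO. Gabrr1 had the larger log2 difference in XX (4.28, against 2.67 in XY) and Alox15 in XY (1.85 against 4.28), with adjusted p = 0.154 and 0.0648 for the difference. For Lat, 1.5 in XX stood beside -0.22 in XY (adjusted p = 0.133 for the difference). The count of 7 became 0 with a pseudocount of 0.1, 13 after either scaling, and 4 without KO replicate 2.

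Pooling the 2 control genotypes was checked by comparing them. Between XX Het1 and XX Het2, 0 genes differed (0%) by limma, with 176 at an unadjusted p below 0.05; without Het2 replicate 2, so that Het2 replicate 1 stood alone for its genotype, 31 did. Of the 140 genes higher without Het2 replicate 1 (1.04% of those tested), 54 were the genes raised with all libraries, so none of these was lost. Of the 30 raised genes with the largest differences, all that could be tested stayed higher in every fit that left out 1 library. They had been chosen with both KO libraries above all Het libraries, so leaving out 1 library could not reverse them. Nothing is therefore read from their direction in those fits. The count of raised families ran from 8 to 15 in the fits that left out 1 library.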

How the data were processed

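3 deposited tables were used, of gene RNA, of marks at promoters (1 kb each side of the Ensembl start) and of repeat families. Per the file headers their values are RPKM made by the authors, with mm9, BWA and SAMtools named in the submitters' processing notes; no source used here gives versions, the counter or the treatment of multi-mapping reads. The deposited repeat table also gives a mappability fraction, which was not used. Other libraries of the series, such as PBAT, were not analysed here. limma 3.58.1 (R 4.3.3, eBayes with trend) was fitted to 12 libraries with 4 group means. Genes that reached 1 RPKM in 2 libraries (13518 of 22138) entered as log2(RPKM + 1), and families that reached 0.1 RPKM (528 of 539) as log2(RPKM + 0.1). Tests were two-sided, with Benjamini-Hochberg adjustment over all features at 0.05. The fit was tested on simulated data. Named were the 30 largest rises with both KO libraries above all Het libraries, all falls and the 6 falls nearest the threshold. Also named were up to 4 members per list, passing families, the 2 most abundant per group, and genes differing between XX and XY. Members and lists were chosen with earlier results of these data known. Alternatives were pseudocounts, filters, scaling, controls, a replicate block and leaving out libraries.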

Additional observations from a re-analysis of the deposited data

Results flagged for a closer look

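In 14 of 131 named genes and families, 1 of the 4 XX Het libraries was flagged as apart from the other 3. The rule is meant to flag about 1 of 20 by chance. That rate need not hold for values near 0, as several here are, or for items chosen from these data. No excess is read from the count. Het2 replicate 1 was the high one for Trim52 (3.17 RPKM), Tchh (6.01), D1Pas1 (10.3) and the family MMVL30-int (3.3). Het1 replicate 1 was the high one for Cbx6 (8.56), Hoxb2 (2.78), Pdgfra (4.68), 2010005H15Rik (0.34), Usp17l5 (0.1), Alox12e (0.08), Gm13283 (0.01) and Usp9y (0.01), and the low one for the family MER34A1 (0.48). Het2 replicate 2 was the high one for Cdh19 (0.06).

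The effect of KO differed between XX and XY germ cells, by the interaction test of limma, for Cyp17a1 (-3.04 log2 units, XX minus XY), Alox12e (-2.0), Mmp10 (-2.21), 2010005H15Rik (-4.66), Gm10256 (-2.44), Usp9y (-2.56) and Gm3376 (-2.18). Gm10256, Usp9y and Gm3376 were at most 0.01 RPKM in every XX library, so they give no XX response to compare.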

How the results depend on the processing

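The 54 genes higher in XX KO became 29 with a gene pseudocount of 0.1, 137 without a filter, 11 with XX libraries only, 22 after median centring, 11 after quantile normalization, 8 with Het1 alone and 2 with Het2 alone as control, and 3 to 140 when 1 library was left out. The 1 lower gene became 3 without a filter, 0 with XX libraries only, with Het1 alone or with Het2 alone, and 0 to 24 with 1 library left out (328 at an unadjusted p below 0.05 in limma). Higher families became 4 with Het1 alone, 4 at a filter of RPKM 1 with pseudocount 1 (12 families, chosen after seeing the data), and 8 to 15 with 1 library left out; 1 family was lower after quantile normalization. Of the 10 higher families, 6 passed after median centring and 6 after quantile normalization, and all 10 stayed higher. Genes that differ between XX and XY became 0 with a pseudocount of 0.1, 64 without a filter, 13 after either scaling, 1 with Het1 or with Het2 alone, and 4 to 10 with 1 library left out. Genes that differ between Het1 and Het2 numbered 0 to 31 with 1 library left out. Raised genes losing promoter H3K9me3 became 1 at 1.5-fold and 1 at RPKM 0.5, and those losing H3K27me3 became 3 and 2. MMETn-int turned to -0.13 after quantile normalization. Over single named genes and families, the call and direction held in 1263 alternative values, 250 no longer passed, 17 newly passed and 1 reversed; the cause was not tested. Depth is unknown, so calls near 0 RPKM are limited by counts that cannot be seen.

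Replicate numbers are only shared numbers here: replicate 1 minus 2 correlated at 0.30 and 0.37 between KO and Het1 or Het2 across 13518 genes, but at -0.04 between Het1 and Het2. With replicate number as a block, 88 genes were higher and 3 lower, 26 families were higher, 11 genes differed between XX and XY, and 2 between Het1 and Het2; all 54 genes were among the 88.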

Other observations

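Without Het2 replicate 1, the control that stands apart, 140 genes were higher and 24 lower by limma. The genes given here are a few of these, picked after their values were seen, and stand for no group. Tdh, threonine dehydrogenase, an enzyme that mouse embryonic stem cells depend on, stood at 54.3 and 31.6 RPKM in Het1, 38.4 in Het2 replicate 2, 14.6 and 16.2 in KO and 11 in Het2 replicate 1 (log2 difference -1.34, adjusted p = 0.0127 by limma without that library). Cdh1, the adhesion protein E-cadherin, stood at 37.1 and 25.8 RPKM in Het1, 37.2 in Het2 replicate 2, 15.2 and 19.3 in KO and 17.1 in Het2 replicate 1 (log2 difference -0.90, adjusted p = 0.0351). Gdf3, a signal of the TGF-beta family made by pluripotent cells, stood at 11.9 and 7.66 RPKM in Het1, 11.8 in Het2 replicate 2, 4.56 and 5.01 in KO and 4.09 in Het2 replicate 1 (log2 difference -0.96, adjusted p = 0.0399). Fbxo15 (log2 difference -1.20, adjusted p = 0.0399) and Sox15 (log2 difference -1.17, adjusted p = 0.0392) were lower too. In Tdh the KO libraries lay between Het2 replicate 1 and the rest.

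On the higher side of the same fit, Ccnb3, a cyclin of meiosis, stood at 3.19 and 3.48 RPKM in Het1, 1.9 in Het2 replicate 2, 20.8 and 21.1 in KO and 21.5 in Het2 replicate 1 (log2 difference 2.53, adjusted p = 0.00155). Rhox13, an X-linked homeobox gene of germ cells, stood at 4.9 and 0.94 RPKM in Het1, 2.17 in Het2 replicate 2, 28.8 and 10.8 in KO and 28.2 in Het2 replicate 1 (log2 difference 2.50, adjusted p = 0.0484). Morc2a, which works with the HUSH complex in H3K9me3 silencing, stood at 40.8 and 44.6 RPKM in Het1, 40.5 in Het2 replicate 2, 69.3 and 59.4 in KO and 82.9 in Het2 replicate 1 (log2 difference 0.60, adjusted p = 0.0498). With all 4 controls in the fit none of these genes passed.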
